A study of Mus musculus with 4 samples.

Results

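The genes described here are the mouse counterparts, on chromosome 16, of genes in human 22q11.2. They were taken by symbol from the deposited expression table: 37 symbols were looked for, and all 37 were found among its 36186 rows. They were picked by name and position, not by their difference between the populations, though with earlier results of these data known. RNA was sequenced from cells of the kidney-ureter junction of SV/129 mouse embryos at E13.5 (embryonic age in days), all of the mutant genotype given as PTC-/-MM, in which hedgehog signalling is constitutively active in the metanephric mesenchyme, which lies around the ureteric bud. An antibody against the hedgehog receptor PTC2 separated PTC2+ from PTC2- cells by flow sorting, and each population has 2 libraries. Both populations carry the mutation, no library of unmutated embryos was analysed here, and the sources used here do not give the driver of the deletion. Nothing in the labels says that the 2 libraries came from different embryos or litters; a p-value therefore covers only the spread among the libraries, which may be technical. The comparison asks which of these genes differ between PTC2+ and PTC2- cells of mutant tissue.

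Deletion of human 22q11.2 between repeated blocks of sequence causes DiGeorge or velocardiofacial syndrome, with defects of the heart outflow tract, thymus, parathyroid glands and palate. Malformed or missing kidneys and other urinary tract defects are also part of it. TBX1 is the gene best known for the heart and pharyngeal defects, and CRKL, an adaptor in receptor tyrosine kinase signalling, is linked to the kidney defects. In the mouse these genes lie together on chromosome 16 in 3 blocks that follow each other. The first holds 7 counterparts of genes distal of human repeat D, the next 10 genes between human repeats B and D, and the last 20 genes between repeats A and B.

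Values are normalized RPKM (NRPKM), reads scaled to gene length and to library size, so levels of different genes can be set side by side. Values of single libraries are given with replicate 1 before replicate 2, and averages with PTC2+ before PTC2- cells. Differences are PTC2+ minus PTC2- in log2(NRPKM + 1), a scale that understates the change of low genes. In the table as a whole names could not always be matched to values, but all 37 genes lie in a run of 974 rows on chromosome 16, from Naa60 to Mrps6, where they could be checked. In that run all 30 constitutively used genes of a list, such as Rpl35a and Psmd2, averaged at least 14.4 NRPKM. Of 76 rows of smell-receptor, hair, sperm and liver genes, 2 averaged 1 NRPKM or more (95% exact binomial interval of the share 0.320 to 9.19%), the protamine gene Prm1 and the kininogen gene Kng2. The rows are gene families and picked genes, not independent draws, so the interval does not measure how well names fit values. Kng2 averaged 1.47 NRPKM. Prm1 averaged 16.5 NRPKM, above the lowest of the constitutive genes, and is an exception in this check. The row of the sorted-for receptor lies outside this run and was not used to check the labels.

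Most of the genes were present in both populations, and none differed past the threshold. Snap29 was about 1.95-fold higher in PTC2+ cells on the log2(NRPKM + 1) scale, and Sdf2l1 and Trmt2a were 1.61-fold and 1.46-fold higher. Rtn4r and Gp1bb, both low, were 3.01-fold and 2.18-fold lower, and the abundant Crkl was 1.41-fold lower. Klhl22 was 1.44-fold lower. These 7 genes had an unadjusted limma p under 0.05, and none passed after adjustment.

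Of the 37 genes, 36 reached 1 NRPKM in at least 2 libraries and were tested with limma, adjusted by Benjamini-Hochberg over all 11807 rows tested. At an adjusted p under 0.05, 0 of 36 were called (adjusted p 0.0936 to 0.992), where 2.92% of all tested rows were called and 5.47% of the 475 tested rows of the run. With the adjustment over the run alone it was again 0 of 36, where 10.1% of its rows were called. At an unadjusted p under 0.05 there were 7 of 36, against 19.8% of all tested rows and 26.3% of those in the run. The count at an unadjusted p was thus near the share of all tested rows. The populations did not overlap in 6 genes that were higher in PTC2+ cells (24.6% of all tested rows, 28.2% in the run) and in 13 that were lower (24.9% of all tested rows, 32.4% in the run). The median difference of the 36 genes was -0.11, against -0.030 over all tested rows and -0.074 over the run. The smallest difference of any row called in the whole table was 0.84 in size, and of the 7 genes only Snap29, Rtn4r and Gp1bb lie beyond that.

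**Figure D1:**
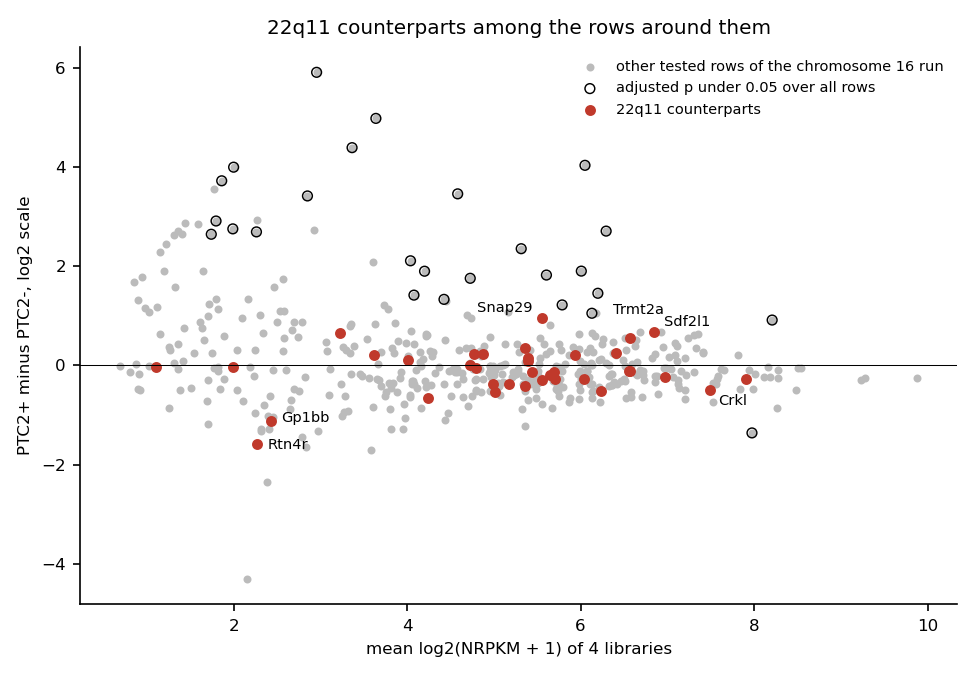
Difference between populations (PTC2+ minus PTC2-, log2 scale) against mean log2(NRPKM + 1) of the 4 libraries for the 475 tested rows of the chromosome 16 run. Red points are the 36 tested 22q11 counterparts, grey points other rows, and open circles mark rows with a limma adjusted p under 0.05 over all rows; no red point is circled, and the red points lie between -1.59 and 0.96.

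The PTC2+ libraries also carried more RNA of most listed myeloid genes. The marker lists were chosen with earlier results of these data known, so their counts only describe. All 12 of 12 listed myeloid markers of the run were tested. At a limma adjusted p under 0.05 over all rows 7 were higher and 0 lower. Of all tested rows 2.92% were called, and of those in the run 5.47%. The summed level of the 12 was 682 and 599 NRPKM in PTC2+ against 80.6 and 78.5 NRPKM in PTC2- libraries. Nrros alone made up 309 and 231 NRPKM of the PTC2+ sums, and 18.46 and 12.75 NRPKM of the PTC2- sums. Cd86, Cd200r1, Stfa1 and Stfa3 were listed at 0 in both PTC2- libraries. The 5 mesenchymal markers Snai2, Robo1, Robo2, Boc and Epha3 summed to 285 and 253 NRPKM in PTC2+ against 568 and 636 NRPKM in PTC2- libraries, and 1 of them, Snai2, was lower at an adjusted p under 0.05. The 3 epithelial markers Cldn8, Cldn1 and Upk1b summed to 166 and 148 NRPKM in PTC2+ against 68.5 and 63.8 NRPKM in PTC2- libraries. Of these Cldn8 was higher at an adjusted p under 0.05, with averages of 78.9 and 6.38 NRPKM. Most of the difference in the sum came from Cldn8. Cldn1 averaged 77.1 and 59.8 NRPKM, with a limma adjusted p = 0.268. Upk1b, a marker of urothelium, was at 0 in both PTC2- libraries and under 1 NRPKM in the others. The part of these cell types in the differences of the 22q11 genes was not tested. In bulk samples such as these, fewer cells of a type and less RNA per cell cannot be told apart.

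The levels ranged from 0.568 NRPKM for Tbx1 to 241 NRPKM for Ranbp1 as the mean of the 4 libraries. Of the 37 genes 28 averaged 20 NRPKM or more, a share of 75.7%, against 45.8% of the 589 protein-coding rows of the run. The run also holds the 37 genes themselves and the 76 rows of smell-receptor, hair, sperm and liver genes. Of these 76 rows, 61 were at 0 in all 4 libraries. Those that count as protein-coding lower the share of the run, and a share without them was not computed. Ranbp1, a regulator of the Ran cycle of nuclear transport, was the highest, followed by Crkl at 181 NRPKM. In every library Ranbp1 was above Crkl. Next came Ube2l3 at 126, Sdf2l1 at 118 and Trmt2a at 95.9 NRPKM, which overlapped each other between libraries. From Top3b at 49.5 NRPKM down to Zdhhc8 at 40.6 NRPKM, 8 neighbours in the order lay so close that their libraries overlapped. At the low end stood Gp1bb at 4.86, Rtn4r at 4.68, Aifm3 at 3.02 and Tssk2 at 1.33 NRPKM.

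**Figure D2:**
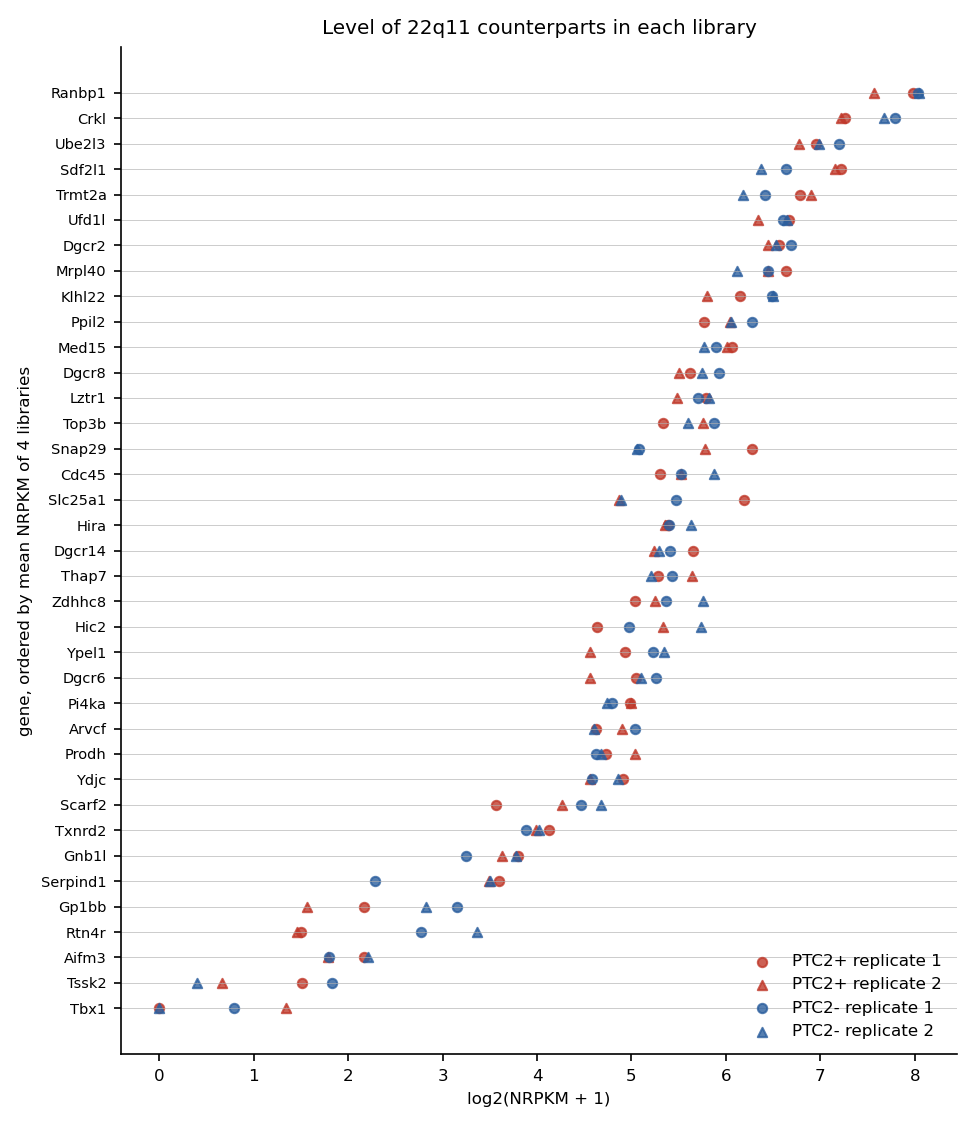
Level of each of the 37 genes in each of the 4 libraries, as log2(NRPKM + 1), with genes ordered by their mean NRPKM. Red symbols are PTC2+ and blue symbols PTC2- libraries, circles replicate 1 and triangles replicate 2. Red and blue do not overlap in 6 genes with red to the right, such as Snap29 and Sdf2l1. They do not overlap in 13 genes with red to the left, such as Crkl and Rtn4r. Over all tested rows these shares were 24.6% and 24.9%.

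Among the signalling genes, Crkl encodes an SH2 and SH3 domain adaptor that links growth factor receptors to small GTPases. Crkl read 152 and 149 NRPKM in PTC2+ cells, against 220 and 204 NRPKM in PTC2- cells. Both PTC2+ libraries lay below both PTC2- libraries, and the libraries of a population lay close together. The log2 difference was -0.49 (SE 0.13, 95% interval -0.82 to -0.16), with a limma adjusted p = 0.129. Lztr1, which brings RAS proteins to a CUL3 ubiquitin ligase, read 54.2 and 43.7 NRPKM in PTC2+ cells, against 51.0 and 55.4 NRPKM in PTC2- cells. The populations overlapped for Lztr1 (log2 difference -0.13, interval -0.59 to 0.34). Gnb1l, a WD-repeat protein, averaged 12.2 and 10.6 NRPKM and overlapped as well.

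Snap29 encodes a SNARE protein that serves membrane fusion, including that of autophagosomes with lysosomes; loss of the human gene causes a syndrome of brain and skin. The windows below show the starts of the 2 genes with the smallest unadjusted p, Snap29 and Sdf2l1, and of Trmt2a, because Snap29 and Trmt2a each share their start region with a neighbour whose difference was smaller or of the other sign. The sequences are RefSeq's for GRCm38.p6, from 250 bases before to 50 bases after the annotated start, 5′ to 3′ on the gene's own strand. For Snap29 (chr16:17405750-17406049, plus strand) and Trmt2a (chr16:18248633-18248932, plus strand) the capitals mark the stretch from the start of the neighbour on the other strand to the gene's own start. For Sdf2l1 (chr16:17132334-17132633, minus strand) they mark the transcribed bases.
Snap29: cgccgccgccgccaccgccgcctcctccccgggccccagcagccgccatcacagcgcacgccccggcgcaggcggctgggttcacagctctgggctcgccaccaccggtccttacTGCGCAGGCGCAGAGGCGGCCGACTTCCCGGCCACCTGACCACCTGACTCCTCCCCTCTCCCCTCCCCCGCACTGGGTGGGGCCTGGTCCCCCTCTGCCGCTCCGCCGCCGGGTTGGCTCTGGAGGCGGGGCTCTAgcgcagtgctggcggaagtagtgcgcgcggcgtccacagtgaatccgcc
Sdf2l1: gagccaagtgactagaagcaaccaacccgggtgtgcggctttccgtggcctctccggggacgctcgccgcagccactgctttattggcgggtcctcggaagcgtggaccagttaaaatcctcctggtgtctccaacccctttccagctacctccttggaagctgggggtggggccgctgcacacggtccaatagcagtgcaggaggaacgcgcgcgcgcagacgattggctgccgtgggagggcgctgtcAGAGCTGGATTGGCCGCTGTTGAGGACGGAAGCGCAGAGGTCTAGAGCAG
Trmt2a: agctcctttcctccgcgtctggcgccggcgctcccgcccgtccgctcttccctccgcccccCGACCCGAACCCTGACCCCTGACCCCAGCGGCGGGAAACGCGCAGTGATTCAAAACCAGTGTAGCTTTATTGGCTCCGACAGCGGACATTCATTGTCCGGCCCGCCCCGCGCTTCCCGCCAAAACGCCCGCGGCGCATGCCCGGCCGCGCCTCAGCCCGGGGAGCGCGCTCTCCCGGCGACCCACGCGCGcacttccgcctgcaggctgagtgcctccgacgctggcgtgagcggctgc

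Snap29 read 76.7 and 54.1 NRPKM in PTC2+ cells, against 32.8 and 32.4 NRPKM in PTC2- cells. Both PTC2+ libraries were above both PTC2- libraries, replicate 1 more so. The log2 difference was 0.96 (SE 0.22, interval 0.41 to 1.51), with a limma adjusted p = 0.0936 over all rows. Over the 475 rows of the run alone the limma adjusted p was 0.0543. Pi4ka, the kinase that makes phosphatidylinositol 4-phosphate at the plasma membrane, is transcribed away from Snap29 from a start 135 bases apart. Pi4ka read 30.8 and 30.9 NRPKM in PTC2+ cells, against 26.7 and 25.8 NRPKM in PTC2- cells. Its values did not overlap between populations either, but the log2 difference was 0.23 (interval -0.25 to 0.71). Zdhhc8, a palmitoyltransferase, read 31.9 and 37.2 NRPKM in PTC2+ cells, against 40.1 and 53.2 NRPKM in PTC2- cells, also without overlap (log2 difference -0.41, interval -0.96 to 0.13).

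Sdf2l1, a cofactor of chaperones in the endoplasmic reticulum, heads the genes of protein folding and degradation. It read 148 and 141 NRPKM in PTC2+ cells, against 98.6 and 81.7 NRPKM in PTC2- cells. The populations were clearly apart, with a log2 difference of 0.68 (SE 0.16, interval 0.29 to 1.08) and a limma adjusted p = 0.0963. The 4 other genes of this group had log2 differences below 0, that of Ufd1l turning to 0.048 without PTC2+ replicate 2. Klhl22, an adaptor of CUL3 ubiquitin ligases, read 69.8 and 54.9 NRPKM in PTC2+ cells, against 89.0 and 89.4 NRPKM in PTC2- cells. Its log2 difference was -0.52 (SE 0.18, limma adjusted p = 0.197). Ube2l3, a ubiquitin-conjugating enzyme, read 123 and 108 NRPKM in PTC2+ cells, against 145 and 126 NRPKM in PTC2- cells. Ppil2, a cyclophilin-like protein with a U-box, read 53.3 and 65.0 NRPKM in PTC2+ cells, against 76.5 and 65.7 NRPKM in PTC2- cells. Neither Ube2l3 nor Ppil2 overlapped between populations, Ppil2 only just. Ufd1l, which works with the p97 segregase in the removal of proteins from the endoplasmic reticulum, averaged 90.4 and 97.6 NRPKM and overlapped. Ube2l3 shares 28.6% of its exon bases with Ydjc on the other strand, so reads of the pair may be mixed. The same holds for Hic2, with 48.6% of its exon bases shared with Gm26635 on the other strand, and on the same strand for Hira, with 44.7% in Gm28539, and Dgcr2, with 26.5% in Gm20518.

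Of the genes that act on RNA, Trmt2a, a tRNA methyltransferase, read 109 and 118 NRPKM in PTC2+ cells, against 84.3 and 71.6 NRPKM in PTC2- cells. All PTC2+ values were above the PTC2- values, with a log2 difference of 0.54 (SE 0.16, interval 0.15 to 0.94) and a limma adjusted p = 0.150. Dgcr8, the partner of Drosha in the cutting of microRNA precursors, read 48.1 and 44.3 NRPKM in PTC2+ cells, against 60.0 and 52.6 NRPKM in PTC2- cells. Its populations did not overlap and lay in the opposite order to Trmt2a, with a log2 difference of -0.28 (interval -0.71 to 0.16, limma adjusted p = 0.454). The 3′ ends of Trmt2a and Dgcr8 meet: 15.5% of the exon bases of Trmt2a and 10.7% of those of Dgcr8 are shared, on opposite strands. Dgcr14, now named Ess2, a factor of pre-mRNA splicing, averaged 43.1 and 39.8 NRPKM and overlapped.

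Of the 37 genes, 8 form 4 head-to-head pairs, whose start windows overlap on opposite strands. The starts lie 135 bases apart for Pi4ka and Snap29, 189 for Ranbp1 and Trmt2a, 322 for Cdc45 and Ufd1l and 113 for Mrpl40 and Hira. Ranbp1 read 252 and 188 NRPKM in PTC2+ cells, against 262 and 263 NRPKM in PTC2- cells, below them in both, while Trmt2a was above. The log2 differences within a pair were -0.27 for Ranbp1 and 0.54 for Trmt2a, 0.26 for Mrpl40 and -0.14 for Hira, and -0.28 for Cdc45 and -0.12 for Ufd1l. Apart from that of Trmt2a these values were small. Without 1 library they ranged from -0.48 to -0.060 for Ranbp1 and from 0.43 to 0.66 for Trmt2a. The range was 0.096 to 0.42 for Mrpl40, -0.25 to -0.021 for Hira and -0.46 to -0.11 for Cdc45. Ufd1l changed sign. Whether the genes of a pair differ from each other in this was not tested. The core of the motif bound by GLI factors, the effectors of hedgehog signalling, was searched for as CCACCCA or, on the other strand, TGGGTGG. It was found in the windows of 6 of the 36 genes with an entry (Dgcr6, Gnb1l, Pi4ka, Prodh, Snap29 and Thap7), in 6 of 43 windows (14.0%), against 9.30% of all 32851 windows. In Snap29 the match begins 62 bases before the start, within the capitals above. The capitals lie upstream of the starts of both Snap29 and Pi4ka. The same letters are therefore also the match in the Pi4ka window, and they are counted for both genes. A match is a run of letters and shows no binding.

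**Figure D3:**
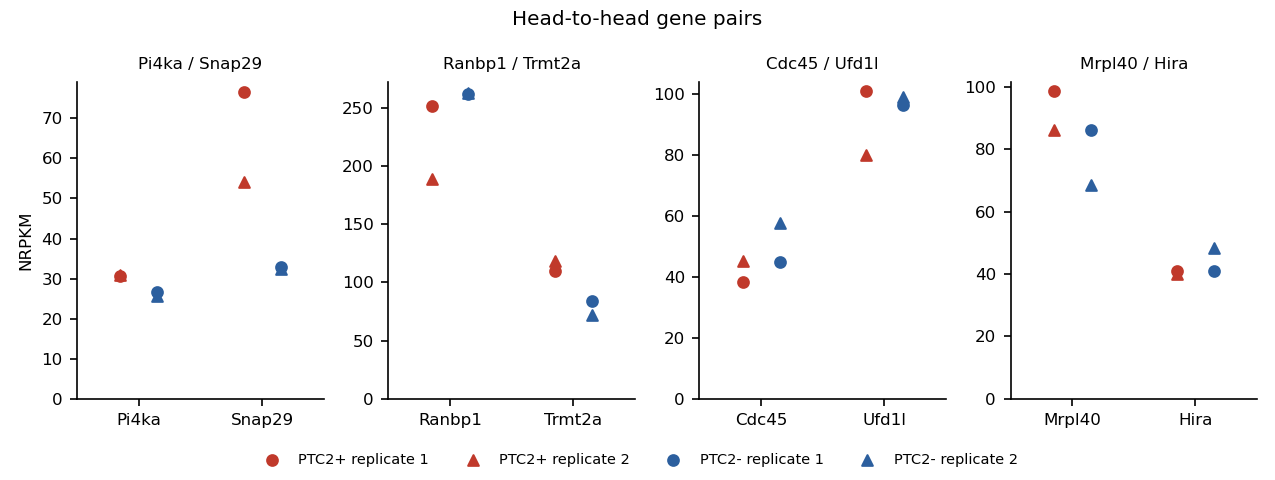
NRPKM of both genes of each head-to-head pair in the 4 libraries, PTC2+ in red and PTC2- in blue, circles for replicate 1 and triangles for replicate 2; each panel has its own axis from 0. Snap29 and its neighbour Pi4ka are both higher in PTC2+ libraries without overlap, Pi4ka within 25.8 to 30.9 NRPKM in all 4 libraries. Trmt2a and Ranbp1 lie in opposite orders.

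In the group of cell-surface and adhesion genes 5 of 5 had a difference below 0 (52.2% of all tested rows, 56.4% in the run). Arvcf turned to 0.077 without PTC2+ replicate 1 and to 0.16 without PTC2- replicate 1. Rtn4r encodes the Nogo receptor, which restrains axon growth. Rtn4r read 1.83 and 1.75 NRPKM in PTC2+ cells, against 5.85 and 9.29 NRPKM in PTC2- cells. The log2 difference was -1.59 (SE 0.43, interval -2.66 to -0.52; limma adjusted p = 0.129), the largest of the 36 in size. At these low levels it moved with the pseudocount, to -1.98 with 0.1 and to -0.87 with 5, where that of Snap29 was 0.98 and 0.89. Gp1bb, a subunit of the platelet receptor for von Willebrand factor, read 3.50 and 1.96 NRPKM in PTC2+ cells, against 7.89 and 6.10 NRPKM in PTC2- cells. Its log2 difference was -1.12 (SE 0.44, limma adjusted p = 0.238), -1.37 with a pseudocount of 0.1 and -0.64 with a pseudocount of 5.

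The exons of Gp1bb lie almost wholly, 91.1% of their bases, within exons of the septin gene Sept5 on the same strand, so its reads may be those of Sept5. Sept5, whose symbol had been turned into a date in the table, averaged 11.5 and 19.8 NRPKM. Gp5, another platelet receptor subunit, averaged 2.43 and 2.50 NRPKM in the 2 populations. Scarf2, a scavenger receptor family member, read 10.9 and 18.2 NRPKM in PTC2+ cells, against 21.1 and 24.6 NRPKM in PTC2- cells (log2 difference -0.65, interval -1.44 to 0.13). Dgcr2, a membrane protein with a lectin-like domain, averaged 89.6 and 96.8 NRPKM. Arvcf, a catenin of the p120 family at cadherin junctions, averaged 26.3 and 27.6 NRPKM, and both overlapped.

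Tbx1, the T-box transcription factor of the pharyngeal region, was barely detected. It read 0 and 1.53 NRPKM in PTC2+ cells, against 0.738 and 0 NRPKM in PTC2- cells, and it was not tested. By an estimate from short genes, a single read per 1 kb of gene gave 0.645 to 0.875 NRPKM, so these are values of very few reads. Hira, a chaperone of histone H3.3, read 40.9 and 40.0 NRPKM in PTC2+ cells, against 41.1 and 48.4 NRPKM in PTC2- cells. The PTC2+ values were only just below the nearest PTC2- value (log2 difference -0.14, interval -0.59 to 0.32). Med15, a subunit of the Mediator complex, read 66.2 and 63.7 NRPKM in PTC2+ cells, against 58.4 and 53.7 NRPKM in PTC2- cells, without overlap, with a log2 difference of 0.21 (interval -0.19 to 0.61).

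Among the other nuclear genes, Cdc45, a part of the replicative helicase, read 38.4 and 45.1 NRPKM in PTC2+ cells, against 45.0 and 57.6 NRPKM in PTC2- cells. PTC2+ replicate 2 and PTC2- replicate 1 were almost equal, so the populations overlapped (log2 difference -0.28, interval -0.80 to 0.23). Top3b, a topoisomerase that acts on DNA and RNA, averaged 46.3 and 52.7 NRPKM. Hic2, a transcriptional repressor, averaged 31.7 and 41.4 NRPKM, and Thap7, a zinc-finger protein that binds chromatin, 43.5 and 39.1 NRPKM. Top3b, Hic2 and Thap7 overlapped between populations.

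The mitochondrial genes showed small differences, 4 of 5 above 0. Slc25a1, the citrate carrier of the inner membrane, read 72.2 and 28.2 NRPKM in PTC2+ cells, against 43.4 and 28.7 NRPKM in PTC2- cells. PTC2+ replicate 1 stood apart from PTC2+ replicate 2 by more than the populations did from each other. Mrpl40, a protein of the mitochondrial ribosome, averaged 92.4 and 77.3 NRPKM and overlapped. Prodh, which begins the breakdown of proline, read 25.6 and 31.9 NRPKM in PTC2+ cells, against 23.7 and 24.6 NRPKM in PTC2- cells. Its populations did not overlap, with a log2 difference of 0.23 (interval -0.31 to 0.78). Txnrd2, the mitochondrial thioredoxin reductase, averaged 15.7 and 14.5 NRPKM. Aifm3, of the family of apoptosis-inducing factor, read 3.51 and 2.44 NRPKM in PTC2+ cells, against 2.48 and 3.65 NRPKM in PTC2- cells, and overlapped.

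The remaining 5 genes did not share a direction. Ypel1, of the yippee family, read 29.6 and 22.6 NRPKM in PTC2+ cells, against 36.5 and 39.7 NRPKM in PTC2- cells. Both PTC2+ values were below the PTC2- values (log2 difference -0.54, interval -1.09 to 0.0059; limma adjusted p = 0.257). Dgcr6 read 32.2 and 22.6 NRPKM in PTC2+ cells, against 37.5 and 33.3 NRPKM in PTC2- cells, also without overlap. Ydjc averaged 25.8 and 25.5 NRPKM. Serpind1, the thrombin inhibitor heparin cofactor II made mainly by liver, averaged 10.7 ± 0.660 and 7.12 ± 4.58 NRPKM (SD, n = 2 each) and overlapped. Tssk2, a kinase of the testis, was low in all libraries, from 0.316 to 2.56 NRPKM.

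By position, the 10 genes between human repeats B and D had differences of both signs, 5 above and 5 below 0, with a median of 0.057. Snap29 and Crkl, which lie next to each other in this block, differed in opposite directions. The 19 tested genes between repeats A and B had 7 above and 12 below 0 (median -0.11), and the 7 distal genes 2 above and 5 below (median -0.22). Over all tested rows 52.2% of differences were below 0, and in the run 56.4%. No block contained a called gene.

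**Figure D4:**
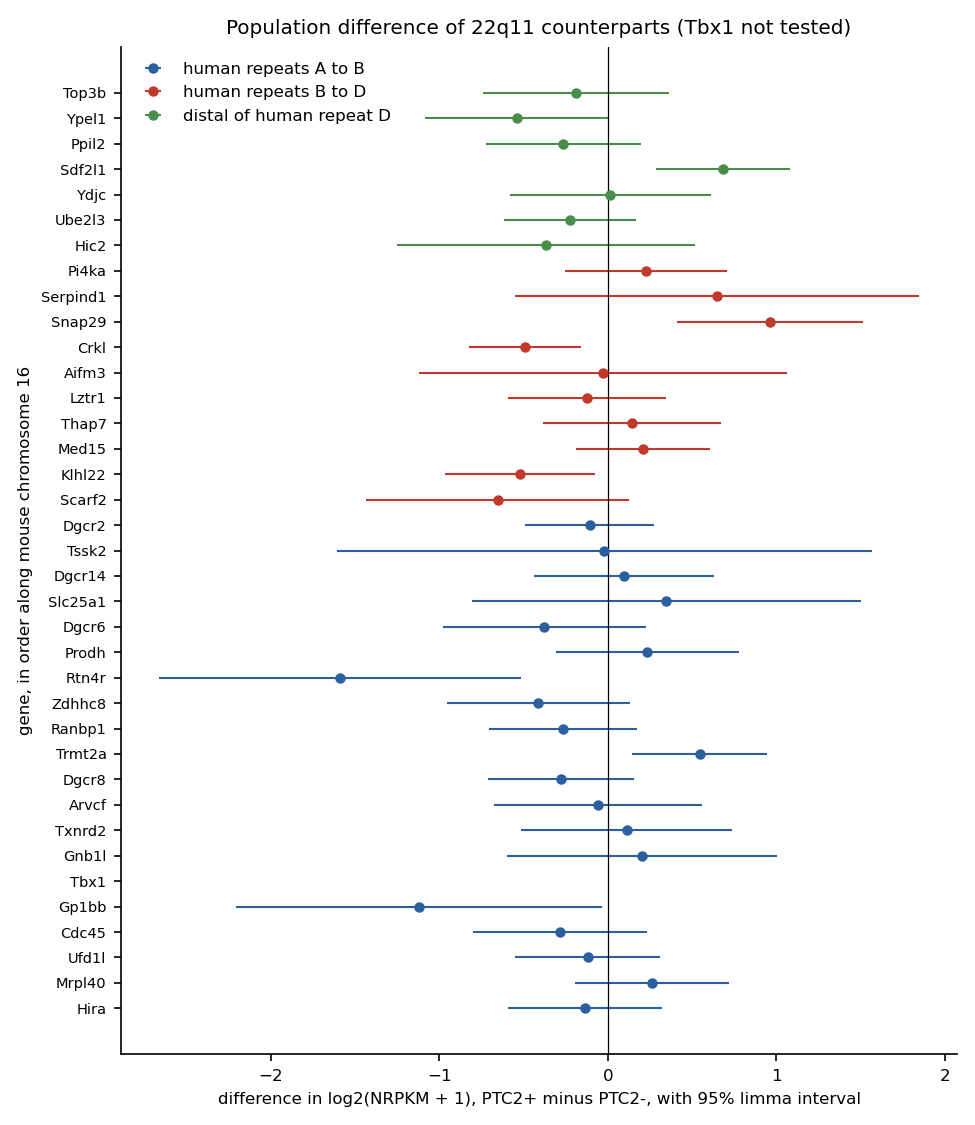
Difference in log2(NRPKM + 1), PTC2+ minus PTC2-, for the 36 tested genes in their order along mouse chromosome 16, with bars for the 95% interval of the limma fit and colours for the block of human 22q11 that holds the gene. Intervals of Sdf2l1, Snap29 and Trmt2a lie above 0 and those of Crkl, Klhl22, Rtn4r and Gp1bb below it; none passed after adjustment.

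A further list held 16 other counterparts of human 22q11 genes on mouse chromosome 16, of which 15 had a row and 10 were tested. None was called after adjustment (limma, adjusted p 0.156 to 0.768), and 2 were higher and 0 lower at an unadjusted p under 0.05, Tango2 and Slc7a4, where 19.8% of all tested rows had such a p. The median difference of the 10 was 0.31, against -0.030 over all tested rows. Tango2 read 14.9 and 25.2 NRPKM in PTC2+ cells, against 7.62 and 8.81 NRPKM in PTC2- cells. Slc7a4, of the cationic amino acid transporter family, read 4.37 and 8.60 NRPKM in PTC2+ cells, against 1.34 and 2.38 NRPKM in PTC2- cells. The immunoglobulin surrogate light chain genes Vpreb1, Vpreb2 and Igll1 averaged 1.89, 0.594 and 0.418 NRPKM over the 4 libraries.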

How the data were processed

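Total RNA was amplified into double-stranded cDNA (NuGEN Ovation) and made into Nextera XT libraries, per the labels' protocols. The submitters' processing notes list TopHat2 (2.0.5), TopHat, Cufflinks (2.0.0) and the build mm9. Which program counted reads, on which gene models and whether by strand, is not stated in the sources used here. The authors deposited normalized RPKM (NRPKM), per the file headers, with columns summing to 283806 to 288752; the sources used here do not state the further scaling. Depth was estimated from short genes, as the commonest low value multiplied by gene length (17 of 158 to 41 of 217 low values lay within 0.5% of it); whole reads were not recovered, so no count model was used.

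The test was limma 3.58.1 in R 4.3.3 (lmFit, then eBayes with a trend in the mean) on log2(NRPKM + 1), for rows reaching 1 NRPKM in at least 2 libraries. It was two-sided and adjusted by Benjamini-Hochberg over all 11807 rows at a threshold of 0.05, and was tested on simulated data. All 37 row identifiers matched the RefSeq gene table of GRCm38.p6, 2 under a newer symbol, and 36 had promoter windows. Exon overlap came from GENCODE M21 on GRCm38, not the authors' mm9. Alternatives were other pseudocounts, filters, trend, centring, adjustment and block, and leaving out each library. The genes, lists and run of rows were chosen with earlier results of these data known. Each gene was named in its role group; values of every library were given for genes with an unadjusted p under 0.05 or no overlap and for those tied to the deletion's defects. Genes of the fixed list of other counterparts that are not reported here were left out of its counts.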

Additional observations from a re-analysis of the deposited data

How the results depend on the processing

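Each population has 2 libraries, and depth is known only by estimate. All alternatives were planned. The count of called 22q11 genes (0 of 36) was 0 under every one of the 12 alternatives; the smallest adjusted p was 0.0543, that of Snap29 adjusted over the run. At an unadjusted p under 0.05 there were 7 genes, 3 without the trend. Over the table the 345 called rows became 214 with a pseudocount of 0.1, 200 without the trend and 0 with no filter (2596 rows at an unadjusted p under 0.05 in limma). The median difference (-0.11) was -0.16 with centred libraries. Centring moves the difference of every row of the table by the same amount, that of Snap29 from 0.96 to 0.92. It therefore does not change the 22q11 genes relative to the other rows. The cause of the other changes was not tested. Leaving out 1 library assumes that the library left alone has the spread of the other pair. It gave 4 to 5 of the 36 genes at an unadjusted limma p under 0.05. Which genes these were changed with the library left out, and some, such as Ranbp1 and Scarf2, were not among the 7. The called rows over the table numbered 0 when either PTC2+ replicate 1 or PTC2+ replicate 2 was absent (1757 and 1815 passed an unadjusted p under 0.05 in limma). They numbered 42 when PTC2- replicate 1 and 32 when PTC2- replicate 2 was absent. The medians of the 36 genes were -0.17 to -0.043. Labels and column headers tie each PTC2+ library to 1 PTC2- library by number, without saying whether it marks a litter or a day. With 2 pairs, deviations of libraries with the same number from the group means correlated at 0.0229 across all rows tested. A fit with that number as a replicate block called 332 rows and 0 of the 36 genes.

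Of 430 alternative values of single genes, 412 kept their direction and side of the threshold. The other 18, in 12 genes, changed sign, 16 of them without 1 library. All 12 genes had a main difference under 0.4 in size. Many of the 412 could not change sign: the filters, trend, replicate block and adjustment over the run leave a log2 difference as it is. Only the pseudocounts, the centring and leaving out 1 library could move it. With a pseudocount of 0.1 Tssk2 was 0.14, and with centred libraries Ydjc was -0.030. Without 1 library the log2 differences ranged from -0.24 to 0.18 for Aifm3, from -0.28 to 0.16 for Arvcf, from -0.11 to 0.31 for Dgcr14, from -0.058 to 0.47 for Gnb1l, from -0.75 to 0.0097 for Hic2, from -0.28 to 0.028 for Lztr1, from -0.32 to 1.01 for Slc25a1, from -0.037 to 0.32 for Thap7, from -0.40 to 0.021 for Top3b, from -0.74 to 0.70 for Tssk2, from -0.29 to 0.048 for Ufd1l, from -0.16 to 0.19 for Ydjc. For the 7 genes with an unadjusted p under 0.05 each kept its sign throughout.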
